A study of Homo sapiens with 19 samples.

Results

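The replication-dependent histone genes encode the linker histone H1 and the core histones H2A, H2B, H3 and H4 that package newly copied DNA. Protein-coding genes of the GENCODE annotation of hg38 were taken as members where they were named H1-1 to H1-6 or where their name began with H2AC, H2BC, H3C or H4C followed by digits. This gave 70 members of 20033 protein-coding genes on chromosomes 1 to 22, X and Y, comprising 6 H1, 17 H2A, 19 H2B, 13 H3 and 15 H4 genes. The rule used names and positions only, and no measured value.

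The study examined endogenous retroviruses as enhancers in acute myeloid leukaemia (AML) by chromatin immunoprecipitation followed by sequencing (ChIP-seq) of human leukaemia cell lines. H3K27ac, the acetylated form of lysine 27 on histone H3 that marks active promoters and enhancers, was available as 1 peak list for each of 4 cell lines. HL-60 and Molm13, which derive from AML, had received no treatment. OCI-AML3, from AML, and K562, from chronic myelogenous leukaemia, had first received a lentivirus for dCas9-KRAB-mCherry, a catalytically dead Cas9 fused to a repressor domain, and then a lentivirus with an empty guide vector and a BFP reporter, and were sorted for mCherry and BFP. A further list gave dCas9 binding in K562 cells that carried dCas9-KRAB-mCherry and a pool of 4 guide RNAs (sgRNAs) against LTR2B, a long terminal repeat family of endogenous retroviruses. In these 5 libraries, the presence of the vectors cannot be told apart from the identity of the cell line.

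Each group had 1 library, so no difference between lines could be tested, and values are given side by side without p-values. Read numbers were not in the lists and the depth of each library was unknown; the HL-60 list held 20772 peaks and the others between 35136 and 37571. The labelled cell types were checked against marker genes. All 8 erythroid and megakaryocytic markers, GATA1 and KLF1 among them, had H3K27ac at the transcription start site (TSS) in K562 and 0 of 8 had it in each of the other lines. Of 8 myeloid markers, 7 were marked (HL-60), 8 (Molm13), 8 (OCI-AML3) and 2 (K562).

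Replication-dependent histone genes are transcribed during S phase in histone locus bodies, nuclear structures organised by the coactivator NPAT. Most lie in clusters, where many copies supply large amounts of histone mRNA in a short time. Their transcripts have no introns and no poly(A) tail, and end instead in a stem-loop that is bound by SLBP, the protein which directs their processing, stability and translation. The canonical transcripts of all 70 members had 1 exon.

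The stem-loop was used to check the members, since the naming rule did not consider it. A 16-base stem-loop pattern was found within 150 bases after the stop codon of 66 of 70 members, between 23 and 68 bases from it (median 36.5 bases). Both strands of the stem were fully complementary in 64 of them, and 7 sequence variants occurred. The 4 commonest are shown because they follow the histone class; capitals mark the stem and lower case the loop.
Stem-loop of 40 members of the H1, H2A, H2B and H3 classes: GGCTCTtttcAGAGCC
Stem-loop of 9 members of the H1, H2A, H2B and H3 classes: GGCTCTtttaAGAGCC
Stem-loop of 10 H4 members: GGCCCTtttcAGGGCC
Stem-loop of 4 H4 members: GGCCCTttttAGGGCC
The 14 H4 members with the pattern thus carried variants that no member of another class had, and 3 H2A genes (H2AC11, H2AC20 and H2AC15) carried variants of their own. H3C6, H2BC10, H4C13 and H2BC12L had no match to the pattern in the searched stretch. Of the 66 members that had it, 42 were marked by H3K27ac in all 4 lines and 15 in none. Of the 4 without it, 0 were marked in all 4 lines, 2 were marked in 2 lines and 2 in none. Over all protein-coding genes, 37.4% were marked in all 4 lines and 40.0% in none. Of the unmarked members, 7 had no sequence around the TSS at which reads could be placed uniquely (described below). They were H2BC12L, without the pattern, and H4C14, H3C14, H2AC18, H2AC19, H3C15 and H4C15, with it. Their lack of a call therefore says nothing of acetylation. Whether marking went with the pattern was not tested.

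H3K27ac lay at the TSS of most histone genes. A member was called marked when a peak lay within 500 bp of the start of its canonical transcript. In HL-60, 43 of 70 members (61.4%) were marked, beside 41.0% of all protein-coding genes. The count was 52 (74.3%) in Molm13, beside 49.9% of all genes, and 53 (75.7%) in OCI-AML3, beside 54.0%. In K562, 46 members (65.7%) were marked, beside 52.1% of all genes. The members' share was thus higher than that of all genes in each list, by the most in Molm13 and by the least in K562. Members share peaks, so these counts are not counts of independent events. In all 4 lines, 42 of the 70 members were marked, beside 37.4% of all genes, and 17 were marked in none (24.3%), beside 40.0%.

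H2A genes, whose product forms dimers with H2B in the nucleosome, were marked in 13 of 17 cases (HL-60), 14 (Molm13), 14 (OCI-AML3) and 13 (K562). For H2B, the counts were 12, 14, 14 and 13 of 19, in the same order of lines. H4 genes, which encode a nearly invariant core histone, were marked in 10, 11, 12 and 9 of 15 cases. H3 genes had the lowest share in HL-60, with 5 of 13 (38.5%), beside 41.0% of all genes. H3C14 and H3C15 have no sequence in the 1 kb around the TSS at which reads could be placed uniquely (described below with the other copies at 1q21), and without them the share was 5 of 11 (45.5%). Of the 13 H3 genes, 7 were marked in K562 (53.8%, beside 52.1% of all genes) and 9 each in Molm13 and OCI-AML3 (69.2%, beside 49.9% and 54.0%). Of the 6 genes for linker histone H1, 3 were marked in HL-60 and 4 in each of the other lines. Members without unique sequence were then left out of every class, a split made after the values were seen. In the order HL-60, Molm13, OCI-AML3 and K562, H2A shares were then 86.7%, 93.3%, 93.3% and 86.7%. Those of H2B were 66.7%, 77.8%, 77.8% and 72.2%. H3 had 45.5%, 81.8%, 81.8% and 63.6%, and H4 76.9%, 84.6%, 92.3% and 69.2%. The shares over all genes were 41.0%, 49.9%, 54.0% and 52.1%.

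**Figure D1:**
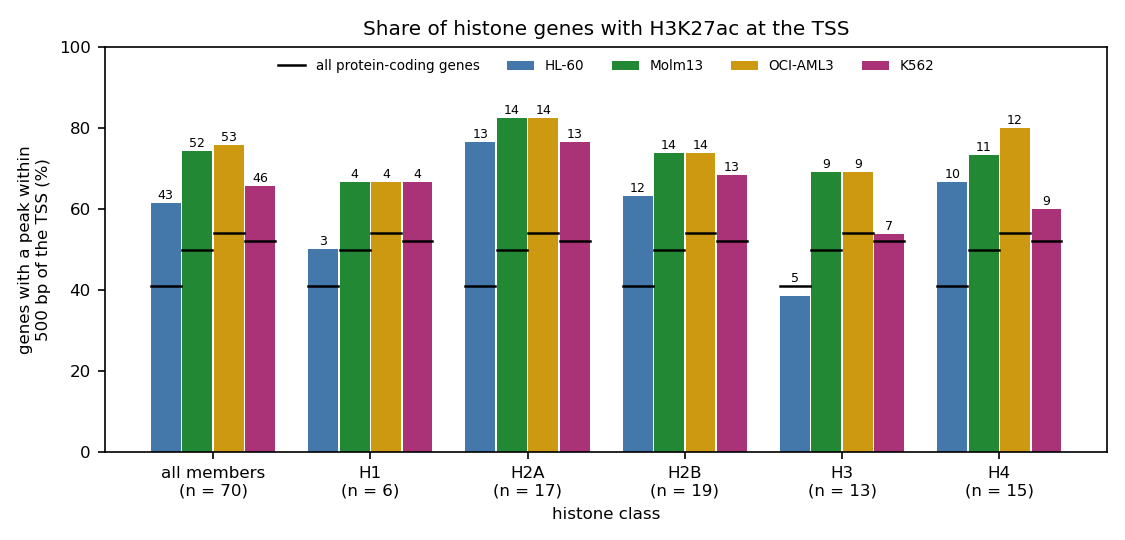
Share of histone genes with an H3K27ac peak within 500 bp of the TSS (%), for all 70 members and for each histone class, in each of the 4 cell lines; numbers above the bars are counts of marked genes and black lines give the share over all 20033 protein-coding genes. The bars for all members stand above the black line in each line, and the H3 bar of HL-60 (5 of 13) stands below it; without the 2 H3 genes that have no unique sequence the share is 45.5%, above the line at 41.0%.

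The members lay in a few clusters. On chromosome 6 there were 55 members in 4 blocks, with gaps of more than 200 kb between blocks. The first block held the testis genes H2AC1 and H2BC1 (chr6:25726562-25726777, first to last TSS), the second 32 members from H1-1 to H4C8 (chr6:26017787-26285534), the third 5 members from H2BC11 to H2AC12 (chr6:27132795-27147106), and the fourth 16 members from H2BC13 to H2BC17 (chr6:27807929-27893425). The cluster at chromosome 1q21 held 11 members, from H2BC18 to H2AC21 (chr1:149812370-149887965). H2AC25 and H2BC26 lay at 1q42, H4C16 on chromosome 12 and H2BC12L on chromosome 21.

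Every member of the third block of chromosome 6 was marked in all 4 lines. In the fourth block, 16 of 16 members were marked in Molm13 and 16 in OCI-AML3, but 12 in K562 and 10 in HL-60. The second block had 20 of 32 marked members (HL-60), 23 (Molm13), 24 (OCI-AML3) and 22 (K562). At 1q21 the count was 5 of 11 in each line, and these were the same 5 genes: H2BC18, H3C13, H2BC21, H2AC20 and H2AC21. The other 6 members there have no sequence in the 1 kb around the TSS at which reads could be placed uniquely (described below). Their lack of a call therefore says nothing of acetylation. Over all protein-coding genes, the share marked was 41.0% (HL-60), 49.9% (Molm13), 54.0% (OCI-AML3) and 52.1% (K562). Neither gene of the first block was marked, with the nearest peak between 106873 and 235462 bp away across both genes and the 4 lines. H2BC1 encodes the testis variant of H2B.

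**Figure D2:**
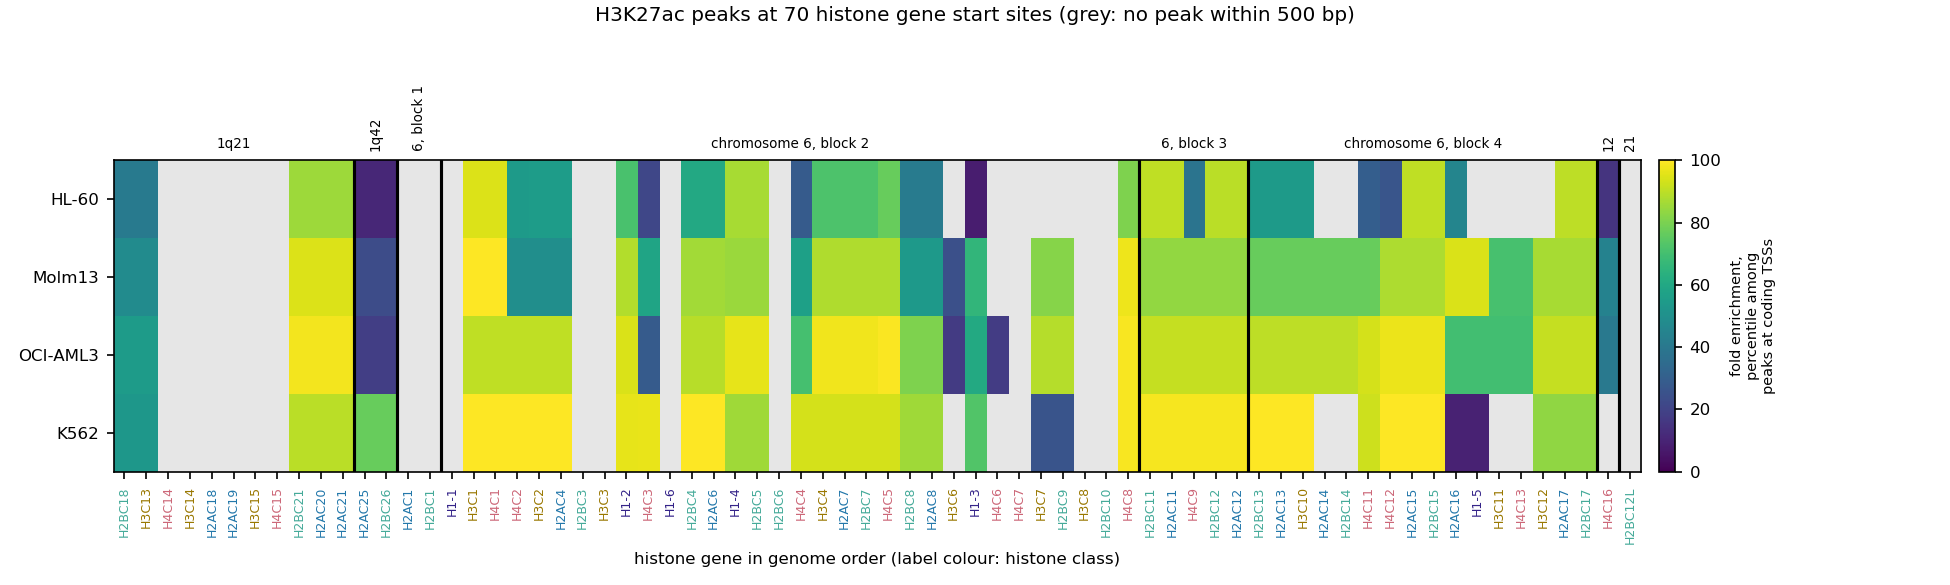
Fold enrichment of the H3K27ac peak at each of the 70 member TSSs, as percentile among the peaks at protein-coding TSSs of the same list (colour, 0 to 100), for the 4 cell lines (rows) and members in genome order (columns); black lines separate blocks and grey marks members with no peak within 500 bp. Block 3 of chromosome 6 is filled in every row, the middle of 1q21 is grey in every row, and the rows of HL-60 and K562 have gaps in block 4. The grey members of 1q21 have no unique sequence around the TSS.

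Counts changed from line to line at 11 members, which are listed here by pattern. H3C6, H2AC14, H2BC14, H3C11 and H4C13 were marked in Molm13 and OCI-AML3 alone (7.14% of members, beside 2.59% of all genes). H3C7, H2BC9, H1-5 and H3C12 were marked in the lines other than HL-60 (5.71%, beside 6.87% of all genes). Of these 9 genes, 6 lie in the fourth block of chromosome 6 (H2AC14, H2BC14, H1-5, H3C11, H4C13 and H3C12), where their fold enrichment over the local background was 7.66 to 11.4 in Molm13 and 4.44 to 5.32 in OCI-AML3, and the nearest HL-60 peak stood 1637 to 7805 bp from the TSS. H3C7 and H2BC9, neighbours in the second block, shared 1 peak in each marked line, with 8.82 (Molm13), 5.17 (OCI-AML3) and 3.20 (K562). H3C6 had a fold enrichment of 4.63 in Molm13, and in OCI-AML3 its peak of 2262 bp was the weakest of all member peaks. Together with the single genes described next, these patterns account for the 53 members marked in at least 1 line.

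H4C16 was marked in every line but K562, as were 1.94% of all genes. It lies apart from the clusters, at chr12:14767999-14771131 on the minus strand. Its peak had a fold enrichment of 3.63 (HL-60), 5.80 (Molm13) and 3.65 (OCI-AML3). In K562 the nearest peak lay 31091 bp from its TSS. H2AJ, a replication-independent H2A gene close by with its TSS at position 14774405 of chromosome 12, was marked in Molm13 (10.6) and OCI-AML3 (5.07), and not in HL-60 or K562. H4C6, at chr6:26240393-26240793, was marked in OCI-AML3 alone, as were 2.02% of all genes. Its peak of 1233 bp had a fold enrichment of 3.02. The nearest peaks to its TSS lay 5604 bp away in HL-60, 4597 bp in Molm13 and 4509 bp in K562.

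Pairs of lines were compared by the share of genes marked in both among those marked in either. Molm13 and OCI-AML3 had 52 of 53 members in common (98.1%, beside 88.6% over all genes). The lowest share was 81.1%, between HL-60 and OCI-AML3, beside 73.6% over all genes. No member was marked in Molm13 and missing in OCI-AML3.

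The distance of 500 bp decided few calls. The calls nearest to the limit on the inside were those of H3C6, whose peak lay 303 bp from the TSS in Molm13 and 330 bp in OCI-AML3. On the outside, the nearest were H2AC19 at 536 bp in Molm13, H2AC18 at 543 bp in HL-60 and H2AC14 at 552 bp in K562. H2BC14 lay 797 bp from a K562 peak. The absence of H2AC14 and H2BC14 from the K562 calls therefore depended on the distance chosen, whereas the nearest HL-60 peaks were 3771 and 4016 bp from these genes.

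Peaks at histone genes were wide and often carried several genes. In HL-60, 26 peaks covered or adjoined the 43 marked TSSs, and their median width was 2376 bp, beside 1290 bp over all peaks at protein-coding TSSs of that list. In Molm13 there were 23 such peaks with a median width of 4307 bp, beside 1812 bp. OCI-AML3 had 24 peaks with a median of 5448 bp, beside 1995 bp, and K562 had 19 peaks with a median of 7851 bp, beside 2676 bp. Histone peaks were thus wider than the usual TSS peak in each list. Peaks of at least 10 kb numbered 0 (HL-60), 4 (Molm13), 5 (OCI-AML3) and 7 (K562); over all TSS peaks such widths made up 0.142%, 1.46%, 1.98% and 3.49%. A histone peak carried 1.65 member TSSs on average (HL-60), 2.26 (Molm13), 2.21 (OCI-AML3) and 2.42 (K562), beside 1.15 to 1.17 coding TSSs per TSS peak over the whole lists.

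Their fold enrichment stood less far from that of other promoters than their width. The median over member peaks was 5.32 in HL-60, beside 5.06 over all TSS peaks. It was 8.82 in Molm13, beside 6.15, 5.21 in OCI-AML3, beside 3.91, and 4.59 in K562, beside 3.61. Fold enrichment depends on the library, so lines were compared by percentile among the TSS peaks of the same list. The median marked member lay at the 60.5th percentile (HL-60), the 83.8th (Molm13), the 90.3rd (OCI-AML3) and the 93.6th (K562). By width, the corresponding percentiles were 89.8, 91.7, 95.9 and 97.0. Both medians were taken over genes, so a shared peak counted once per member, whereas the reference counted each peak once. All member peaks had a q-value of at most 0.05, and 23 of 26 in HL-60 and every one in the other lines had a q-value under 0.001.

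The highest mean percentile of fold enrichment over the 4 lines belonged to H3C1 and H4C1, which encode H3 and H4 and lie next to each other at chr6:26020451-26020958 and chr6:26021649-26022050. They shared 1 peak in each line, with a fold enrichment of 9.51 (HL-60), 16.3 (Molm13), 5.26 (OCI-AML3) and 5.71 (K562). In HL-60 and Molm13 this was the strongest of all member peaks. Its width was 1860 bp in HL-60 and 2969 bp in Molm13, and in OCI-AML3 (15285 bp) and K562 (16532 bp) the peak also took in H4C2, H3C2 and H2AC4.

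H4C8 came next, with 7.08 (HL-60), 12.9 (Molm13), 6.52 (OCI-AML3) and 5.24 (K562). It stands at the end of the second block, and its peak held no other member in any line. H2AC15 and H2BC15, a divergent H2A and H2B pair of the fourth block, shared values of 8.36, 9.66, 5.96 and 5.58 in the same order of lines. The strongest member peak of OCI-AML3 was that of H4C5 (6.94), and that of K562 was shared by H2BC4 and H2AC6 (5.87). H2AC25 and H2BC26, the pair at 1q42, shared a peak of 3.48, 4.56, 3.04 and 4.10 in the order HL-60, Molm13, OCI-AML3 and K562. Its percentile was 76.6 in K562, 23.3 in Molm13 and 18.4 in OCI-AML3, and lower still in HL-60.

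The third block of chromosome 6 showed most plainly how separate peaks in 1 line corresponded to a single domain in others. In HL-60, H2BC11 and H2AC11 lay in a peak of 3531 bp, H4C9 in one of 1898 bp, and H2BC12 with H2AC12 in one of 2813 bp. A single peak covered all 5 genes in each of the other lines, with a width of 18367 bp (Molm13), 22756 bp (OCI-AML3) and 24830 bp (K562). The last 2 were the widest member peaks of their lists. The widest of Molm13 measured 19474 bp and held 6 members of the fourth block, H2BC13, H2AC13, H3C10, H2AC14, H2BC14 and H4C11, the most in any member peak of the 4 lists. In HL-60 the widest was 4480 bp, at H2BC21, H2AC20 and H2AC21.

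Coverage of whole blocks also varied between lines. Counting the block and 1 kb on either side, H3K27ac peaks covered 12.7% of the second block (HL-60), 23.2% (Molm13), 31.4% (OCI-AML3) and 39.3% (K562). For the third block, coverage was 51.7% in HL-60 and 100% in the other lines. For the fourth, it was 17.6%, 56.0%, 55.1% and 51.0%. At 1q21 it ranged from 9.30% in HL-60 to 19.5% in K562. Median peak width over all TSS peaks rose from HL-60 through Molm13 and OCI-AML3 to K562 (1290, 1812, 1995 and 2676 bp). Coverage of the second block and of 1q21 rose in the same order, whereas that of the fourth block was highest in Molm13. The part that library depth had in these widths was not tested.

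**Figure D3:**
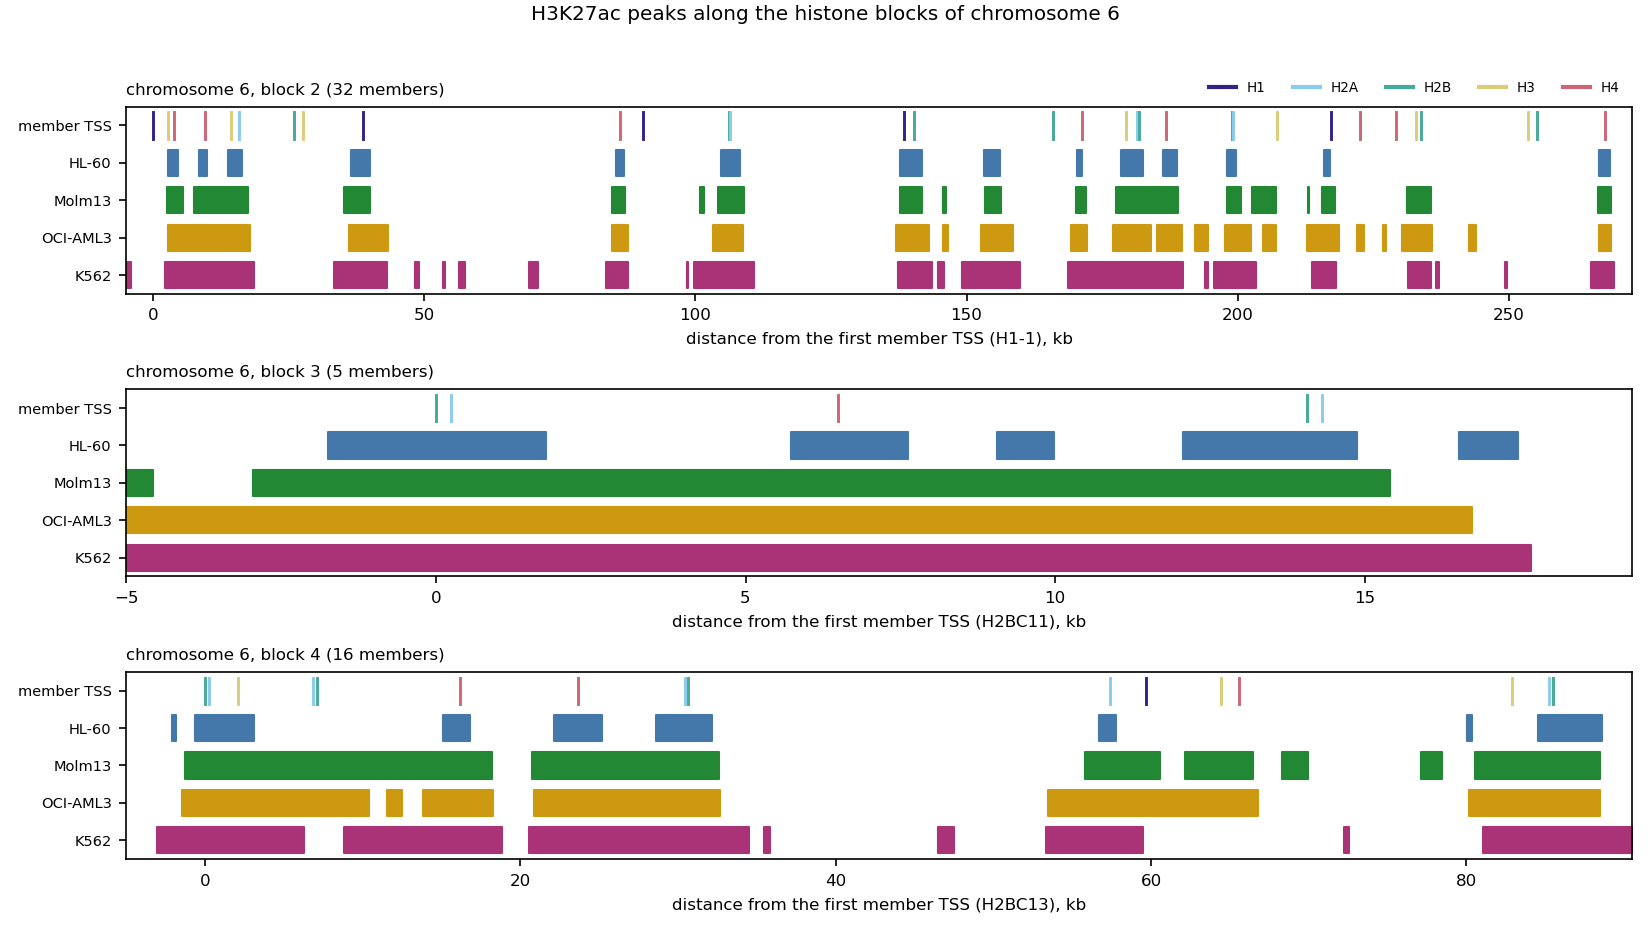
H3K27ac peaks (coloured bars, 1 row per cell line) along blocks 2, 3 and 4 of chromosome 6, with member TSSs as ticks coloured by histone class; the horizontal axis gives kb from the first member TSS of each block. Block 3 carries separate peaks in HL-60 and 1 continuous peak in each of the other lines, and parts of block 2 have no peak in any line.

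The same difference appeared around the average TSS. At the TSS itself, peaks covered 54.3% of members (HL-60), 70.0% (Molm13), 74.3% (OCI-AML3) and 62.9% (K562), beside 32.6%, 44.6%, 48.9% and 46.5% of all protein-coding genes. At 5 kb upstream, 11.4% of members were covered (HL-60), 37.1% (Molm13), 37.1% (OCI-AML3) and 44.3% (K562). The shares over all genes at that distance were 1.90%, 4.98%, 5.22% and 6.74%. Coverage of members at 5 kb downstream was 12.9%, 32.9%, 34.3% and 48.6%, beside 1.43%, 4.69%, 5.27% and 8.38%. Since members lie close together, a position 5 kb from one TSS is often near another.

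**Figure D4:**
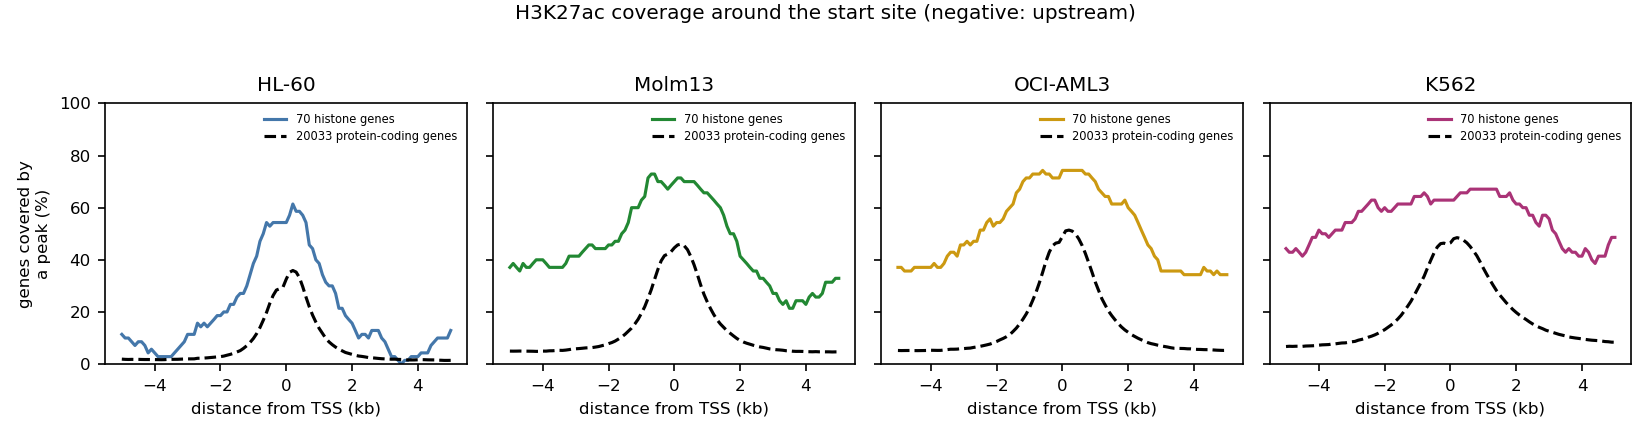
Share of genes covered by an H3K27ac peak (%) against distance from the TSS in kb (negative upstream), for the 70 histone genes (solid, coloured) and all 20033 protein-coding genes (dashed, black) in each cell line. The solid line stays above the dashed one over most of the window, and at 5 kb upstream it lies at 11.4% in HL-60 and 44.3% in K562.

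Many H2A and H2B genes are arranged head to head and share the stretch between their start sites. There were 12 such pairs, with TSSs between 194 and 251 bp apart (median 238 bp). Both genes of a pair had the same pattern over the 4 lines in 12 of 12 pairs, and 10 pairs were marked in all 4 lines. With so short a distance, 1 peak reaches both start sites under the rule used, so this shared pattern is largely given by position. The pair of H2AC1 and H2BC1 was marked in no line, and that of H2AC14 and H2BC14 in Molm13 and OCI-AML3.

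Promoter sequences were taken from RefSeq (GRCh38.p14) for the 64 members matched by symbol, each by the entry that starts at the canonical TSS (all but H2AC12, H2BC12L, H3C11, H3C12, H4C1 and H4C3), as 250 bases before to 50 bases after the start. Letters searched on both strands were TATAAA (the TATA box), CCAAT (bound by NF-Y), ATTTGCAT (the octamer bound by POU2F1), AAACACA (the H1 box) and GGTCC (the core of H4 site II, near which HINFP binds). CCAAT and GGTCC can overlap, which they did in 5 member promoters. TATAAA was held by 65.6% of member promoters, beside 11.5% of all 35116 promoters in the table, and CCAAT by 84.4%, beside 34.6%. The octamer was held by 39.1%, beside 1.77%, and it lay in 68.8% of H2A and 77.8% of H2B promoters. AAACACA was present in 6 of 6 H1 promoters and in 5.64% of all promoters. GGTCC was present in 12 of 13 H4 promoters, beside 46.3% of all, and CCAAT in 23.1% of H4 promoters, beside 100% of those of the other classes. Member promoters had a median GC content of 43.7%, beside 58.7% over all promoters.

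Marked and unmarked members both held these letters. Among the 39 promoters of members marked in all 4 lines, 69.2% held TATAAA, 84.6% CCAAT and 43.6% the octamer. Among the 16 of members marked in none, the shares were 62.5%, 81.2% and 31.2%. Of these 16, 6 have no unique sequence around the TSS, and among the other 10, 6 held TATAAA, 9 CCAAT and 5 the octamer. The lower octamer share of unmarked members thus came from the 6 without unique sequence, a split made after the values were seen. Those 6 include H3C14, H3C15, H4C14 and H4C15, and no H1, H3 or H4 promoter held the octamer. The mix of classes was not made equal between marked and unmarked members. The 200 bases upstream of the start are shown for 2 H1 genes, one marked in all 4 lines (H1-4) and one in none (H1-1), for 2 H3 genes with the same contrast (H3C1 and H3C8), for H2AC20 and H4C8, marked in all 4 lines, and for H4C16, not marked in K562. Capitals mark the letters searched.
H1-4, chr6:26156129-26156328, plus strand: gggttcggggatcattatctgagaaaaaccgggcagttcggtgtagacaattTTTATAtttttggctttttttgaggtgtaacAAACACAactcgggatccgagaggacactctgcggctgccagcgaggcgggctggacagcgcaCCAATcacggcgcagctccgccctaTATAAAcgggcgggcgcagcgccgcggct
H1-1, chr6:26017788-26017987, minus strand: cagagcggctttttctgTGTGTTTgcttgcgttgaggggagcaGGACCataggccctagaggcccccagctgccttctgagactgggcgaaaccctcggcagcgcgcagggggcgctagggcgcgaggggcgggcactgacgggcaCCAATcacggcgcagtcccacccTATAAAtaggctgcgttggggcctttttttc
H3C1, chr6:26020251-26020450, plus strand: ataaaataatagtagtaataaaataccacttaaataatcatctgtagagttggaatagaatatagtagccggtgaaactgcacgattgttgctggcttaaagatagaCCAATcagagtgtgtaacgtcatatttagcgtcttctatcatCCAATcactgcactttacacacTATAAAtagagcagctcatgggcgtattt
H3C8, chr6:26271414-26271613, minus strand: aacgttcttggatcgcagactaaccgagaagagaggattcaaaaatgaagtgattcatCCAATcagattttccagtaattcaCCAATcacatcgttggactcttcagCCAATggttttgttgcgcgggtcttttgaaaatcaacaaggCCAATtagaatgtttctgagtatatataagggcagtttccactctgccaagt
H2AC20, chr1:149886718-149886917, plus strand: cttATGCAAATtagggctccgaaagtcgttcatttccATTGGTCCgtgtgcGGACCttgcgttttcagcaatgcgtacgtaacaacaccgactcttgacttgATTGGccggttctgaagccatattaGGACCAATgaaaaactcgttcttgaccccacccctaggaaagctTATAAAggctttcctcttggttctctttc
H4C8, chr6:26285535-26285734, minus strand: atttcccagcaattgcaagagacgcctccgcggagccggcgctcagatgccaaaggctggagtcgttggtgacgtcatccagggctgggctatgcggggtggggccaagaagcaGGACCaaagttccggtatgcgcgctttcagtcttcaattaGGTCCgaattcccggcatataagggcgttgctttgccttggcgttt
H4C16, chr12:14771132-14771331, minus strand: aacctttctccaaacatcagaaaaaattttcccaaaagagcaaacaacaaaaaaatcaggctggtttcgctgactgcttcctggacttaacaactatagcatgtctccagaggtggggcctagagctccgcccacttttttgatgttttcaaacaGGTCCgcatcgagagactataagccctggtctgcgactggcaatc
Both H1 promoters held the H1 box, a CCAAT box 54 bases before the start and a TATA box close to it, at 29 bases before the start in H1-4 and 31 in H1-1. H1-4, at chr6:26156329-26157115, had a fold enrichment of 7.82 (HL-60), 9.26 (Molm13), 5.81 (OCI-AML3) and 4.32 (K562). H1-1, at chr6:26017032-26017787, had no peak within 500 bp in any line, with the nearest 2681, 2493, 2629 and 2133 bp away. H3C8 held 4 CCAAT boxes and no exact TATAAA in the stretch shown, though the similar letters tatataag occur near the start. Its nearest peaks lay between 4006 and 13018 bp from the TSS. A match describes letters and not a bound site.

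The 17 members marked in none of the lines fell into groups of different kinds. Reads that mapped to several places had not been kept by the authors, so the share of 75-base words in the 1 kb around each TSS that occur once in hg38 was counted; 75 bases is the read length of the libraries, which were single-end or paired-end. This share was 0% for 7 members, H4C14, H3C14, H2AC18, H2AC19, H3C15 and H4C15 at 1q21 and H2BC12L on chromosome 21, and all 7 were unmarked in every line. A single read of that length cannot be placed uniquely in these windows, so a missing peak there says nothing of whether the gene was acetylated. The other 63 members included 10 that were unmarked in all lines, with at least 95.5% unique words each. The lowest share at a marked member was 40.3%, at H3C13. Among the 7, the nearest peak to H3C14 and H3C15 lay 2083 to 2202 bp from the TSS over the 4 lines, that to H4C14 and H4C15 10634 to 10753 bp, and that to H2BC12L 38199 to 93960 bp.

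The 6 unmarked genes of 1q21 lay in 2 stretches that were near copies of each other on opposite strands, chr1:149817459-149843511 and chr1:149850301-149876373. Of the 75-base words of the first, 92.5% were found in the second. The promoters of H2AC18 and H2AC19, of 300 bases each, lie at matching places in the copies. At an offset of 1 base, all 299 bases that could be compared were the same. The promoter of H2AC18 is shown with its searched letters in capitals.
H2AC18, chr1:149842751-149842950, minus strand: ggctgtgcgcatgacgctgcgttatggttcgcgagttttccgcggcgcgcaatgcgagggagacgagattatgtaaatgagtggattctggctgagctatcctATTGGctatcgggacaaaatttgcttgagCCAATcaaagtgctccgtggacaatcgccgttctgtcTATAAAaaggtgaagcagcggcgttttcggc
Between the copies lay 6789 bp of largely unique sequence, and an H3K27ac peak stood there in each line. In Molm13 the peak ran from 149843337 to 149850525, in OCI-AML3 from 149843357 to 149850469 and in K562 from 149843374 to 149850406. HL-60 had 2 separate peaks, 149843293 to 149844349 and 149849879 to 149850505, at the edges of the same gap. The peaks reached between 106 and 225 bp into the copies and ended 536 to 655 bp from the TSSs of H2AC18 and H2AC19. Fold enrichment was 7.71 and 7.10 for the HL-60 peaks, 5.60 (Molm13), 4.32 (OCI-AML3) and 4.20 (K562). These peaks thus broke off close to where unique sequence ended, upstream of both H2A genes.

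**Figure D5:**
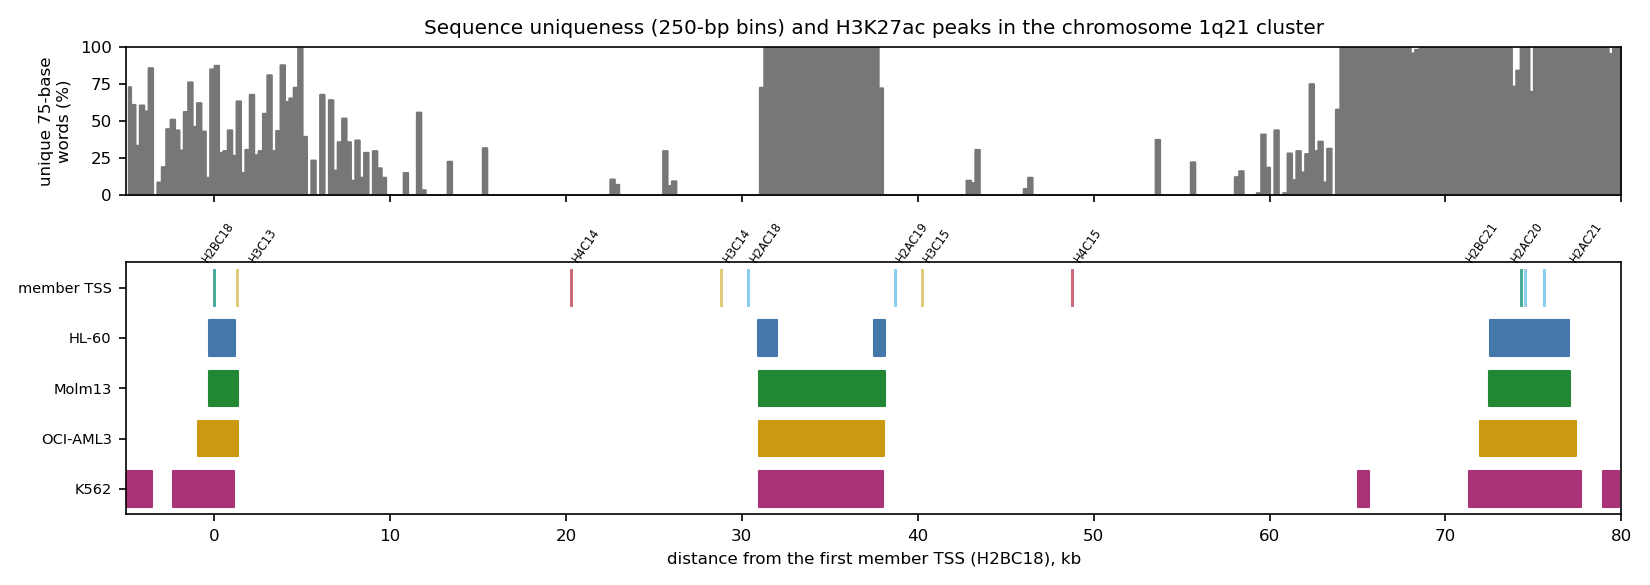
Upper panel, share of 75-base words that occur once in hg38 (%, bins of 250 bp) along the 1q21 cluster; lower panel, member TSSs and H3K27ac peaks of the 4 cell lines, against kb from the TSS of H2BC18. The 6 members from H4C14 to H4C15 stand where few words are unique, and the peaks between H2AC18 and H2AC19 end near the edges of the unique stretch in all 4 lines.

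The other unmarked members were H2AC1, H2BC1, H1-1, H2BC3, H3C3, H1-6, H2BC6, H4C7, H3C8 and H2BC10. H1-6, which encodes the H1 variant of the testis, had its nearest peak 3565 bp (HL-60), 3390 bp (Molm13), 2721 bp (OCI-AML3) and 2713 bp (K562) from the TSS. H2BC3 and H3C3 lay side by side in the second block, with the nearest peak between 5728 and 9489 bp from their TSSs over the 4 lines. H3C8 and H2BC10, also neighbours, had their nearest peaks between 4006 and 13018 bp away. H4C7 had a peak 1110 bp away in OCI-AML3, 2115 bp in Molm13, 2206 bp in K562 and 12207 bp in HL-60. For H2BC6, a second annotated start of the gene lay within 500 bp of a peak in each of the 4 lines, while its canonical TSS was 4320, 4178, 3381 and 2784 bp from one in HL-60, Molm13, OCI-AML3 and K562. The same choice of start changed 1 further call, that of H3C12 in HL-60.

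Binding of dCas9 in the presence of the LTR2B guides was compared with the positions of the members. None of the 70 members had a dCas9 peak within 500 bp of its TSS (0 of 70), beside 0.200% of all protein-coding genes. Of the 393 dCas9 peaks, the nearest to a member stood within the second block at chr6:26178065-26178512, in an intron of the longer H2BC6 transcript and 5249 bp from the canonical TSS of H2BC6. It had a fold enrichment of 15.3. Of the members, 11 lay within 50 kb of it. A nearby H3K27ac peak of the empty-vector K562 cells lay 421 bp from this dCas9 peak, and the nearest in the other lines lay 1617 to 4054 bp from it. H3K27ac in K562 cells with the LTR2B guides was not analysed here.

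The dCas9 peak contained sites for 3 of the 4 guides, each followed by an NGG motif. They are shown with the last 2 bases of that motif and any mismatch to the guide in capitals.
sgRNA4 site, chr6:26178226-26178245, minus strand: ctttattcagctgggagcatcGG
sgRNA2 site, chr6:26178152-26178171, plus strand: tagtgttgtgagTccttaaaaGG
sgRNA3 site, chr6:26178250-26178269, minus strand: gacaccgagttgtaAaaggaaGG
Coordinates give the 20 bases that pair with the guide. The sgRNA4 site had 0 mismatches. With positions counted from 1 at the guide's 5′ end, the other sites carried 1 substitution each, C13T for sgRNA2 and G15A for sgRNA3. Near the fourth block, a weaker dCas9 peak with a fold enrichment of 6.21 lay at chr6:27774219-27774375, 33554 bp from H2BC13, and 6 members were within 50 kb of it. This weaker peak overlapped H3K27ac peaks of Molm13 and of the empty-vector OCI-AML3 and K562 cells. The nearest HL-60 peak lay 12169 bp from it. Over both peaks, 17 members were within 50 kb of dCas9, beside 2.37% of all protein-coding genes; these 17 belong to 2 places in the genome.

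Of 19 genes for histone gene transcription and 3′ end processing, 18 were marked in HL-60 (beside 41.0% of all genes), 18 in Molm13 (beside 49.9%), 19 in OCI-AML3 (beside 54.0%) and 18 in K562 (beside 52.1%). In all 4 lines, 17 were marked, beside 37.4% of all genes. NPAT, the coactivator of histone locus bodies, had a fold enrichment of 6.47 (HL-60), 8.40 (Molm13), 5.12 (OCI-AML3) and 3.59 (K562). SLBP had 6.31, 6.21, 4.10 and 3.22 in the same order. The exceptions were LSM11, a subunit of the U7 particle that processes histone mRNA, marked in HL-60 (3.26) and OCI-AML3 (2.57), and CCNE2, a cyclin E gene, marked in every line but HL-60.

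Replication-independent histone variants, whose genes are expressed throughout the cell cycle or in particular tissues, were also examined. Of 16 variants, 8 were marked in HL-60 (50%, beside 41.0% of all genes) and 9 in Molm13 (56.2%, beside 49.9%). In OCI-AML3, 10 were marked (62.5%, beside 54.0%), and in K562 9 (56.2%, beside 52.1%). The share in each line was near that of all genes and above it. In all 4 lines, 8 of the 16 were marked, beside 37.4% of all genes. H3-3B, which encodes the H3.3 variant, had 7.75, 6.70, 5.68 and 4.32, and H2AZ1, which encodes H2A.Z, had 7.62, 6.88, 5.07 and 4.28 in the order HL-60, Molm13, OCI-AML3 and K562. Of the 16 variants, 6 were marked in no line, beside 40.0% of all genes: H1-7, H1-8, MACROH2A2, H3-5, H2BW1 and H2AB1. The lists of genes were small, and no difference between them was tested.

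Other protein-coding genes inside the blocks were few. HFE, a regulator of iron uptake that stands among the genes of the second block, was marked in K562 alone. The gene ENSG00000282988 was marked in all 4 lines and shares its TSS, position 26199293 of chromosome 6, with H2AC7.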

How the data were processed

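ChIP-seq peak lists of 5 of 19 samples were used, and the other 14 samples were not analysed here. Groups were taken from the sample titles. According to the study's methods and the submitters' processing notes, the authors trimmed reads with Trim Galore (0.4.5), aligned them to hg38 with Bowtie2 (2.3.4 in the notes), kept uniquely mapped reads and called peaks with MACS2 (2.1.1) at a q-value of 0.05, with the broad option for H3K27ac. The control library given to the caller is not given in the sources used here. For each peak, the deposited lists hold a position, a fold enrichment, which is a ratio to local background, p- and q-values as −log10, and a score derived from the q-value. The authors' numbers were used without rescaling. The dCas9 list also holds summit positions, which were not used. Sequencing depth was unknown, and intervals that need read numbers are not given.

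The TSS was the start of the canonical transcript in GENCODE (version 44), 1 per gene, and the strongest peak within 500 bp by fold enrichment gave a gene its values. Members more than 200 kb apart were placed in separate blocks and those more than 2 Mb apart in separate clusters. Percentiles refer to peaks within 500 bp of any protein-coding TSS of the same list. Word uniqueness was counted over both strands of hg38. Promoters came from the RefSeq table (GRCh38.p14), using the entry nearest to the canonical TSS where a gene had several; the 64 member entries were identical to hg38 and started 0 bp from that TSS. The sgRNA sequences are reagents listed by the study. Overlap and word counts were tested on simulated data. Python (3.11.15), NumPy (2.4.6), pysam (0.24.0), numba (0.67.0) and matplotlib (3.10.9) were used. All coordinates are 1-based.

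The members and gene lists were chosen with earlier results of these data known. All members were accounted for by pattern. Values in every library were given for members marked in 1 line alone or lost in 1 line alone, for those marked in none (distances to the nearest peak, in part as ranges), for the 5 with the highest mean percentile of fold enrichment among members marked in all 4 lines, for the widest peaks and those with most members, for members near dCas9 and for the near-identical copies; others named were chosen after their values were seen. Alternatives were other distances to the TSS, stricter q-values, equal list lengths, all annotated starts, the nearest peak, members with unique sequence, and 50-base words.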

Additional observations from a re-analysis of the deposited data

How the results depend on the processing

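Of 46 values computed with other settings, 45 stayed within 1.5 times the reported one. With a peak required to cover the TSS, 38 members were marked (HL-60), 49 (Molm13), 52 (OCI-AML3) and 44 (K562). These were 54.3%, 70.0%, 74.3% and 62.9% of members, beside 32.6%, 44.6%, 48.9% and 46.5% of all genes. Within 1000 bp there were 45, 54, 55 and 50 (64.3%, 77.1%, 78.6% and 71.4%). The shares of all genes were then 42.3%, 50.9%, 54.7% and 53.3%. The added members were H2AC18 and H2AC19, which have no unique sequence around the TSS, and in K562 also H2AC14 and H2BC14. At a q-value below 0.001, the count was 39 in HL-60 and unchanged at 52, 53 and 46 in the other lines, and it did not change in any line when each list was cut to its 20772 strongest peaks. Among the 62 members with at least 50% unique words, 42, 51, 52 and 45 were marked (67.7%, 82.3%, 83.9% and 72.6%). The shares of all genes, not filtered by unique words, were 41.0%, 49.9%, 54.0% and 52.1%. The exception was the number of members near dCas9, which was 0 within 500 bp and 1 (H2BC6) within 10 kb, by construction of the wider window. With 50-base in place of 75-base words, 9 rather than 8 members had under 50% unique words. Leaving out the 7 members with no unique word was chosen after seeing the data; of 23 further values so computed, 22 stayed within 1.5 times, and the octamer share of promoters of unmarked members moved from 31.2% to 50%.

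No paired analysis was possible because no result came from a test, with a single list (1) per group. There was no spread between replicates, and the differences between lines described above have no replicate check. Depth was unknown, and its part in missing peaks was not tested.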
